A study of Mus musculus with 4 samples.

Results

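Binding places of endogenous Sox2 were compared with those of Halo-Sox2D, a HaloTag fusion that keeps Sox2 residues 1 to 120, in D3 mouse embryonic stem cells. The material was 2 deposited ChIP-exo peak lists, 1 library each. Endogenous Sox2 was isolated with an antibody against Sox2, and Halo-Sox2D through its tag on HaloLink resin. The 2 remaining libraries of the series, Halo-Sox2 (resin) and Halo-Sox2M (resin; labelled M47G:F50:M51G, with no replacing residue given for F50), were used to find dense regions and as a comparison. All 4 libraries share the cell line and the sonicated nuclei. The labels give neither the level at which Halo-Sox2D was made nor whether those cells also held endogenous Sox2. Members were the peaks of both lists outside mitochondrial DNA, unplaced or random sequence, and every 100 kb bin that held 15 or more peaks in any of the 4 lists. This left 19605 of the 29255 peaks of the series, 6364 of 7153 for endogenous Sox2 and 13241 of 13833 for Halo-Sox2D.

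Sox2 is an HMG-box transcription factor: the HMG box enters the minor groove at short SOX motifs and bends the DNA, and the part of the protein that follows it carries the activation function. In embryonic stem cells Sox2 acts with Oct4, the product of Pou5f1, at enhancers and promoters of pluripotency genes, often at a SOX motif joined to an octamer. The truncated protein holds the HMG box and lacks the sequence downstream of it. ChIP-exo trims the isolated DNA with an exonuclease up to the crosslinked protein, so a peak marks a place a few bases wide.

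The protein, the tag, the way of isolation and the library differed together between the lists, so their parts in any difference below cannot be told apart. With 1 library in each group there was no replicate check and no p-value, and a library of input DNA or of resin alone was not used here. The lists hold positions without scores, so read depth and peak strength are unknown. Ranges in brackets are 95% Wilson intervals. They express counting error and nothing else, and peaks that lie side by side are not separate observations. Peak lists measure no expression, so the cell type could not be checked against marker genes.

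Promoter sequences show the 3 kinds of place that recur below: peaks of both libraries, of endogenous Sox2 alone and of Halo-Sox2D alone. They are RefSeq windows of GRCm38.p6, which has the coordinates of mm10, printed 5′ to 3′ on the strand of the gene with the peaks in capitals. The first 4 lines show promoters where both libraries had peaks: Mtf2, which encodes an accessory subunit of Polycomb repressive complex PRC2 (chr5:108065544-108065659, plus strand), and the imprinted gene Zdbf2 (chr1:63200178-63200228, plus strand). The last 2 lines show a promoter with endogenous Sox2 peaks and no Halo-Sox2D peak, Nanog (chr6:122707389-122707488, plus strand), and the reverse, the ribosomal protein gene Rps18 (chr17:33955815-33955865, minus strand).
Mtf2, endogenous Sox2: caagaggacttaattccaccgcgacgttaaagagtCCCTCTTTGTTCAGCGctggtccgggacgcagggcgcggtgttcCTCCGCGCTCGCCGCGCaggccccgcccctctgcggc
Mtf2, Halo-Sox2D: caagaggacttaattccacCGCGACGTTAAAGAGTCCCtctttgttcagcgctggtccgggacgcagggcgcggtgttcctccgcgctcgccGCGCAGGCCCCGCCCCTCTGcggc
Zdbf2, endogenous Sox2: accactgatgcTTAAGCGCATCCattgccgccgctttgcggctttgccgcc
Zdbf2, Halo-Sox2D: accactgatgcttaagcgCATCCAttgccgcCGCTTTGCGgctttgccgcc
Nanog, endogenous Sox2: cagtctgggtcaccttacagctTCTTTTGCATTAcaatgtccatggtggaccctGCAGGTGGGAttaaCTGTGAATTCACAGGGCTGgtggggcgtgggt
Rps18, Halo-Sox2D: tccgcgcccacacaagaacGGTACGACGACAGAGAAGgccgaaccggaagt

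At Mtf2 the printed stretch ran from 130 to 15 bases before the transcription start. It held 2 endogenous Sox2 peaks and 3 Halo-Sox2D peaks, which lay beside or partly over each other. A SOX motif (ACAAAG on the other strand) fell in an endogenous Sox2 peak there. The Nanog stretch ended 1 base before a start and held 3 endogenous Sox2 peaks, the first of them next to an ACAATG motif. The Rps18 stretch lay 200 to 150 bases before the start and held neither motif.

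A set of 41-base stretches shows SOX motifs beside peaks of a single library, with the motif in capitals and the peak centre in the middle. The first 4 come from promoters with 3 Halo-Sox2D peaks, no endogenous Sox2 peak and no Halo-Sox2 peak: the chloride transporter gene Clcn4 (chr7:7299594-7299634, minus strand), Wbp1 (chr6:83121553-83121593, minus strand) and the zinc finger genes Zfp687 (chr3:95015601-95015641, minus strand) and Zfp710 (chr7:80024673-80024713, plus strand). The other 3 come from promoters with 2 endogenous Sox2 peaks and no Halo-Sox2D peak: 1700019D03Rik (chr1:52953659-52953699, minus strand), the ATP synthase subunit gene Atp5g3 (chr2:73911391-73911431, minus strand) and Fam169a (chr13:97067192-97067232, plus strand). They were chosen after their values were seen, as the windows with most peaks among 145 and 18 such windows, with Nanog, printed above, left aside. Only peaks with a SOX motif within the 41 bases were taken, and in each window the one closest to its motif. The nearness of motif and centre in these stretches was therefore set by the choice.
Clcn4: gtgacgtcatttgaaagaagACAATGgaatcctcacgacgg
Wbp1: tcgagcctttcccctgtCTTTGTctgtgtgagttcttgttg
Zfp687: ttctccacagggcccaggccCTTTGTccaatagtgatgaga
Zfp710: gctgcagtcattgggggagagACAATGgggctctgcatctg
1700019D03Rik: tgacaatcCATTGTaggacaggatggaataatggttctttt
Atp5g3: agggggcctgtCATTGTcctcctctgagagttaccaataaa
Fam169a: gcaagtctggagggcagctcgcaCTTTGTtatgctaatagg

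The number of peaks and their spacing differed first. The Halo-Sox2D list held 2.08 times as many peaks as the endogenous Sox2 list. Peaks were 1 to 20 bp wide in both, with a median of 12 bp for endogenous Sox2 and 11 bp for Halo-Sox2D. Endogenous Sox2 peaks lay in tight groups: the lower quartile of the distance to the next peak of the list was 91 bp, although the median was 84.9 kb. For Halo-Sox2D the lower quartile was 11 kb and the median 49.3 kb. When centres within 500 bp of each other were joined into sites, 47.7% of endogenous Sox2 peaks (46.4 to 48.9%) fell in sites with 2 or more of their own peaks, against 19% of Halo-Sox2D peaks (18.3 to 19.7%). Halo-Sox2, isolated on resin like Halo-Sox2D, stood at 20.9% (19.9 to 21.9%) and Halo-Sox2M at 16.7% (14.4 to 19.2%). Sites with 4 or more peaks numbered 158 for endogenous Sox2 and 36 for Halo-Sox2D.

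About 1 in 3 endogenous Sox2 peaks had a Halo-Sox2D peak beside it, and about 1 in 8 Halo-Sox2D peaks had an endogenous Sox2 peak beside it. Centres lay within 500 bp for 2030 endogenous Sox2 peaks (31.9%, 30.8 to 33.1%) and for 1636 Halo-Sox2D peaks (12.4%, 11.8 to 12.9%). Most of these neighbours were much closer than the limit, with a median distance of 41.5 bp from the endogenous Sox2 peaks and 33.5 bp from the Halo-Sox2D peaks. Far fewer touched: 430 endogenous Sox2 peaks (6.76%, 6.17 to 7.40%) and 418 Halo-Sox2D peaks (3.16%, 2.87 to 3.47%) overlapped by at least 1 bp. Beyond the site itself the share rose slowly, to 34.7% of endogenous Sox2 peaks at 1000 bp and 43.6% at 5000 bp. Against Halo-Sox2, a list of 5829 peaks, 29.8% of endogenous Sox2 peaks were shared within 500 bp (28.7 to 30.9%). The longer Halo-Sox2D list thus gave endogenous Sox2 peaks a neighbour about as often as the shorter list of the fusion that was not truncated.

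The density at 10 to 50 kb was taken as the level of the neighbourhood. Within 25 bp of endogenous Sox2 peaks, Halo-Sox2D peaks were 190 times as dense as at 10 to 50 kb. The ratio was 111 at 25 to 50 bp, 72.8 at 50 to 100 bp and 33.0 at 100 to 200 bp. It had fallen to 7.79 at 200 to 500 bp and to 1.28 at 5 to 10 kb, so most of the excess lay within 200 bp. Halo-Sox2 peaks were denser still around endogenous Sox2 peaks, at 464 times the level at 10 to 50 kb in the first 25 bp. Around Halo-Sox2D peaks the Halo-Sox2 ratio was 131. These ratios share the endogenous Sox2 or the Halo-Sox2 list, and each has its own level at 10 to 50 kb.

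**Figure D1:**
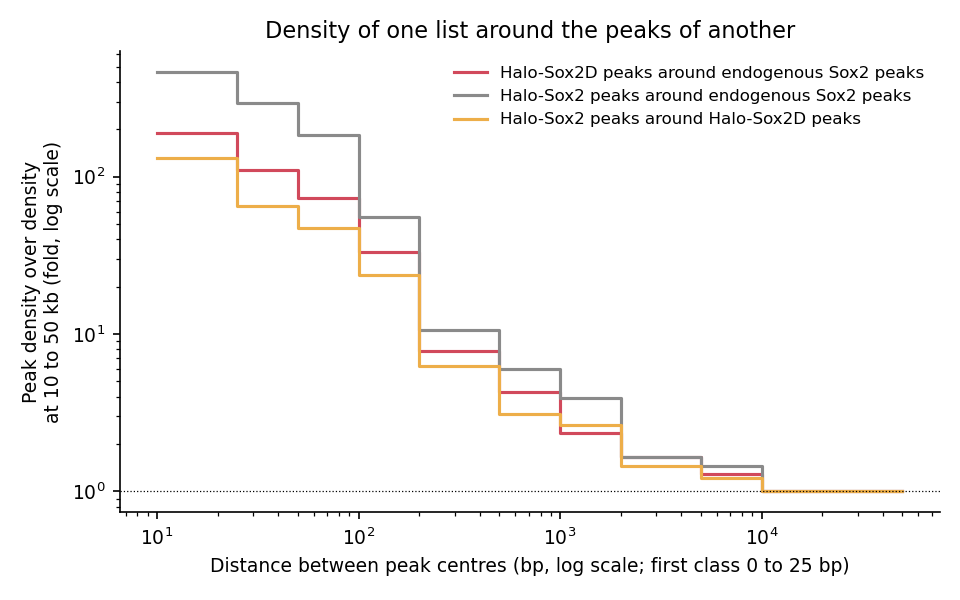
Density of the peaks of a library by distance (bp, log scale) from the peaks of another, as a fold over the density at 10 to 50 kb (log scale); the first step covers 0 to 25 bp and the dotted line marks a fold of 1. All 3 lines fall from 131 or more in the first 25 bp to below 2 beyond 2 kb.

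Joining the peaks of both libraries within 500 bp gave 15176 sites. Of these, 1173 held both libraries, 3326 endogenous Sox2 alone and 10677 Halo-Sox2D alone. Shared sites were 26.1% of the 4499 sites with endogenous Sox2 (24.8 to 27.4%) and 9.90% of the 11850 sites with Halo-Sox2D (9.37 to 10.4%). A shared site holds at least 2 peaks by definition, while most sites of a single library held 1, so their numbers of peaks and spans are given as a description. Endogenous Sox2 had 1.74 peaks per shared site and 1.30 per site of its own, and Halo-Sox2D had 1.4 and 1.09. The median span was 102 bp in shared sites, 14 bp in sites of endogenous Sox2 alone and 12 bp in sites of Halo-Sox2D alone.

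The more peaks a site held of its own library, the more often it held the other. Of sites with 1 endogenous Sox2 peak, 20.8% also held Halo-Sox2D (19.5 to 22.2%), and of sites with 4 or more, 60.0% did (96 of 160, 52.3 to 67.3%). For Halo-Sox2D the share with endogenous Sox2 went from 7.84% (7.35 to 8.36%) at 1 peak to 73.0% (27 of 37, 57.0 to 84.6%) at 4 or more. A site with more peaks is also wider and has more room for a neighbour, and the part of width was not tested. Halo-Sox2, whose list had no part in the division into sites, was found in 36.7% of shared sites (33.9 to 39.5%), 19.6% of sites of endogenous Sox2 alone (18.3 to 21%) and 4.77% of sites of Halo-Sox2D alone (4.38 to 5.19%). Halo-Sox2M was found in 3.75% (2.81 to 5%), 1.62% (1.25 to 2.11%) and 0.562% (0.437 to 0.723%).

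**Figure D2:**
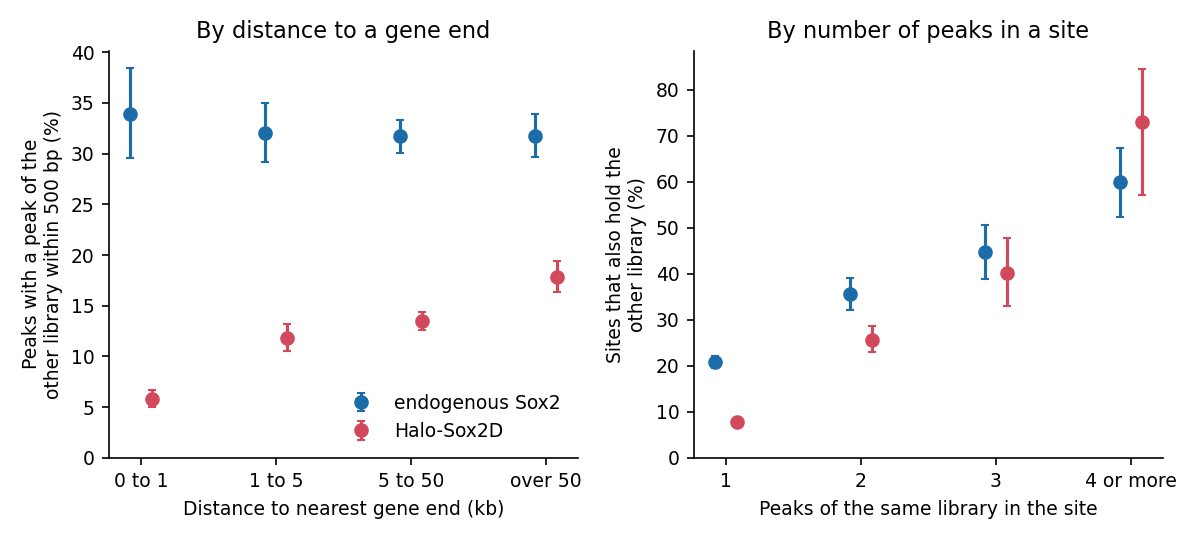
Left, share of peaks with a peak of the other library within 500 bp (%) by distance to the nearest end of a protein-coding gene (kb); right, share of sites that also hold the other library (%) by the number of peaks of the same library in the site; bars are 95% Wilson intervals. Endogenous Sox2 stays between 31.7 and 33.9% on the left while Halo-Sox2D goes from 5.77% to 17.8%, and both climb on the right.

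The fullest shared site held 8 peaks of each library and 2 peaks each of Halo-Sox2 and Halo-Sox2M, at chr15:75086038-75086941, 21.7 kb from Ly6c2. Ly6c2 belongs to a family of clustered, similar genes. A site inside Tnfsf11, which encodes the cytokine RANKL, had 9 endogenous Sox2 and 5 Halo-Sox2D peaks (chr14:78288943-78289394). A site inside Aida had 10 and 2 (chr1:183299170-183299559). Sites inside Prex2, near Ahi1 and near Sema3e each had 6 and 4, and the one near Ahi1 also held 6 Halo-Sox2 peaks. The balance was the other way at chr8:19784537-19784805, 31.1 kb from 4930467E23Rik, with 1 endogenous Sox2, 8 Halo-Sox2D and 4 Halo-Sox2M peaks. The site at chr12:3109911-3110099, 137 kb from its nearest gene Rab10, had 3, 5 and 3. Halo-Sox2M peaks were present at 3 of these 8 sites, beside 3.75% of all shared sites. The 8 were chosen after their values were seen and are not the 8 fullest. Sites near Vwa3b, Gli2 and Rybp and inside Abca4, with 9 peaks of the 2 libraries each, held no Halo-Sox2M peak and are not counted. The part of repeated sequence was not tested.

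The libraries differed in their distance to genes. Within 1 kb of an end of a protein-coding gene lay 6.77% of endogenous Sox2 peaks (6.18 to 7.42%) and 21.7% of Halo-Sox2D peaks (21 to 22.4%). Halo-Sox2D was higher on 20 of 20 chromosomes (the autosomes and X). By chromosome its share ran from 13.5% to 29.5% on the autosomes, against 3.29% to 11.9% for endogenous Sox2. On X the shares were 24.8% and 2.53%. The share of endogenous Sox2 peaks with a Halo-Sox2D peak ran from 25.6% to 39.7% over the autosomes and was 17.7% on X. Inside genes lay 43.2% of endogenous Sox2 peaks (42.0 to 44.4%) and 52.0% of Halo-Sox2D peaks (51.2 to 52.9%). The gene table used here does not divide genes into exons and introns.

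By kind of site the shares near a gene end are a description, since a Halo-Sox2D peak of a shared site lies next to an endogenous Sox2 peak by definition and so takes on its position. Near a gene end lay 10.2% of the 1642 Halo-Sox2D peaks of shared sites (8.80 to 11.7%) and 23.3% of the 11599 of its own sites (22.6 to 24.1%). The difference was 13.2 percentage points (11.4 to 14.8). Median distances to a gene end were 18.2 kb and 9.15 kb. For endogenous Sox2 peaks the shares were 7.15% in shared sites and 6.59% elsewhere, a difference of −0.556 points whose interval held 0 (−1.95 to 0.743). That depended on the counting: the interval left out 0 with peaks merged within 100 bp (−1.71, −3.55 to −0.0369), with the ends of all annotated genes (−2.45, −4.28 to −0.692) and with 1 value per joined site (−2.04, −3.98 to −0.278). By distance, which is the same relation counted from the gene, 5.77% of Halo-Sox2D peaks within 1 kb of a gene end had an endogenous Sox2 peak within 500 bp (4.98 to 6.69%), and 17.8% of those more than 50 kb away did (16.4 to 19.4%).

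The excess of Halo-Sox2D was larger at the start of genes than at the far end. RefSeq windows gave the transcription starts and strand of 17492 of 21887 protein-coding genes, with none on chromosome 18, whose peaks were left out of these counts. Within 1 kb of a start were 2351 of 12804 Halo-Sox2D peaks (18.4%, 17.7 to 19%) and 280 of 6162 endogenous Sox2 peaks (4.54%, 4.05 to 5.09%). Halo-Sox2 stood at 7.97% (7.29 to 8.70%) and Halo-Sox2M at 12% (10 to 14.2%). Far ends had 3.11% of Halo-Sox2D peaks (2.82 to 3.42%) and 1.74% of endogenous Sox2 peaks (1.44 to 2.09%). By the same joining rule, and so as a description, 20% of Halo-Sox2D peaks without endogenous Sox2 in their site lay near a start (19.2 to 20.7%) and 7.11% of those with it (5.95 to 8.48%).

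Around the start the 2 libraries had a maximum in the same place, at different heights. Halo-Sox2D peaked in the last 100 bp before the start, with 40.9 peaks per 100 bp per 1000 peaks of the library, and endogenous Sox2 had 8.28 there. In the 100 bp after the start the values were 27.6 and 4.87. At 2000 to 1500 bp before the start they were 1.22 and 1.82, so the order was reversed there. Of the peaks within 1 kb of a start, 62.1% of Halo-Sox2D (60.1 to 64.0%) and 61.8% of endogenous Sox2 (56.0 to 67.3%) lay before it. Halo-Sox2 and Halo-Sox2M also had their maximum in the last 100 bp before the start. It was 13.2 for Halo-Sox2 and 27.2 for Halo-Sox2M in the same unit, the latter from 25 of 920 peaks.

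**Figure D3:**
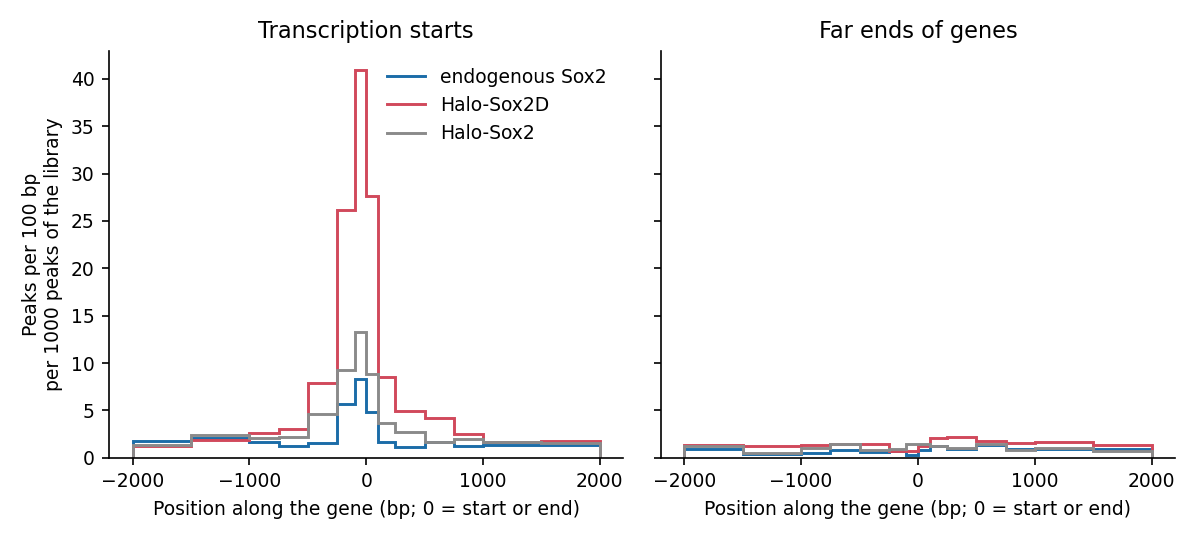
Peaks per 100 bp per 1000 peaks of the library by position (bp) around transcription starts (left) and far ends of genes (right); negative positions lie before the start or end in the direction of transcription. Halo-Sox2D reaches 40.9 in the 100 bp before the start, endogenous Sox2 reaches 8.28, and neither rises at far ends in the same way.

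SOX motifs were more frequent at the promoter peaks of both libraries than elsewhere in promoters. Promoter windows covered 250 bases before to 50 after a start. Motifs were searched on both strands as ACAAAG or ACAATG (SOX), ATGCAAAT (octamer) and GGGCGG (GC box), and no motif contains another. A SOX motif was present in 25.7% of all 21238 windows, in 48.7% of the 119 windows with endogenous Sox2 (39.9 to 57.6%), in 30.1% of the 1261 with Halo-Sox2D (27.7 to 32.7%) and in 63.6% of the 44 with both (48.9 to 76.2%). The joined motif CATTGT, 1 base, then ATGCAAAT, was in 0 of all windows in a search for exact letters, which passes over near matches and from which nothing is drawn. An octamer was in 6 of the 119 endogenous Sox2 windows (5.04%) and in 35 of the 1261 Halo-Sox2D windows (2.78%), against 1.66% of all windows.

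Whole windows differ in composition, so the 41 bases centred on each peak are the closer measure. A SOX motif lay in 28 of 114 stretches around endogenous Sox2 peaks (24.6%, 17.6 to 33.2%) and in 189 of 1169 around Halo-Sox2D peaks (16.2%, 14.2 to 18.4%). The share was 3.76% of all 41-base stretches of the table, and away from the peaks in the same windows it was 4.26% for endogenous Sox2 and 2.34% for Halo-Sox2D. SOX motifs thus stood close to the peak centre in these stretches, which, unlike the printed ones, were not chosen by motif. Within 10 bp of the centre there were 11.1 motifs per 1000 places for endogenous Sox2 and 6.50 for Halo-Sox2D, against 1.04 in all windows, and at 50 to 100 bp there were 1.81 and 0.564.

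GC boxes behaved differently. They were in 68.4% of Halo-Sox2D windows and 61.3% of endogenous Sox2 windows, against 46.2% of all. In the 41 bases around Halo-Sox2D peaks their share was 16.3% (14.2 to 18.5%), and away from the peaks in the same windows it was 16.1%. Windows with Halo-Sox2D peaks had a median GC content of 61.3% and those with endogenous Sox2 58.0%, against 56.3% in all windows. Their ratios of observed to expected CpG were 0.804, 0.705 and 0.567. The part of base composition in the promoter excess of Halo-Sox2D was not tested.

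**Figure D4:**
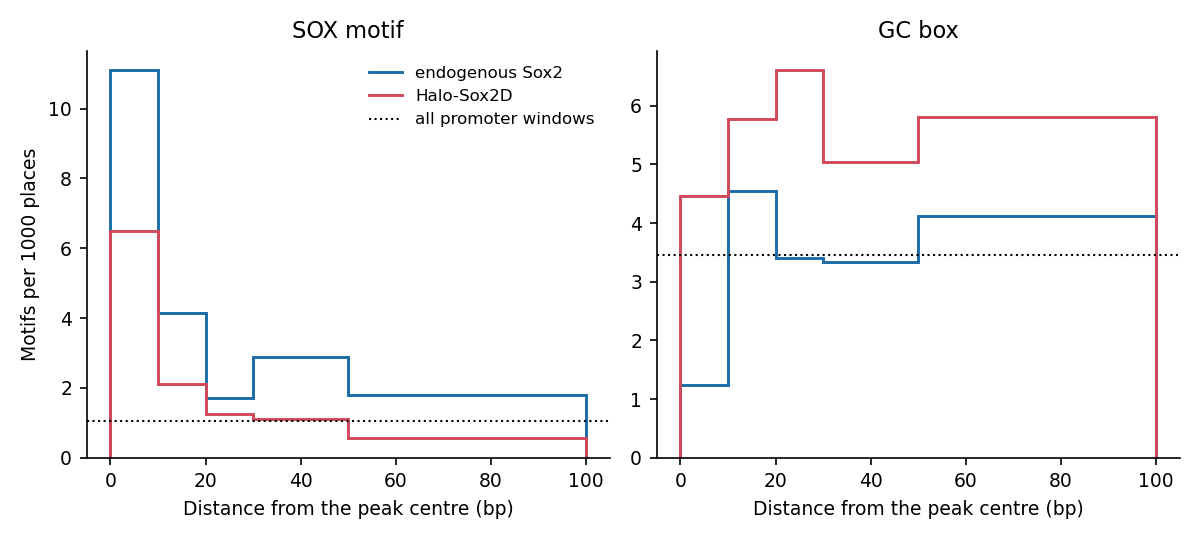
Motifs per 1000 places by distance from the peak centre (bp) in promoter windows, for SOX motifs (left) and the GC box (right); the dotted line is the level in all windows. SOX motifs fall from 11.1 (endogenous Sox2) and 6.50 (Halo-Sox2D) within 10 bp to 1.81 and 0.564 at 50 to 100 bp, and GC boxes show no rise at the centre.

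At the level of genes, a window of the gene body and 50 kb on each side was used, in which neighbouring genes can share a peak. A Halo-Sox2D peak was in the windows of 57.7% of the 21887 protein-coding genes and an endogenous Sox2 peak in those of 27.3%. Peaks of both were found for 22.2% of genes, endogenous Sox2 without Halo-Sox2D for 5.12%, and the reverse for 35.5%. Of the 5977 genes with endogenous Sox2, 81.3% also had Halo-Sox2D (80.3 to 82.2%), while 38.5% of the 12627 genes with Halo-Sox2D also had endogenous Sox2 (37.6 to 39.3%). A shared window was not always a shared site: 42.1% of the 4857 genes with both had a site that held both (40.7 to 43.5%), which is 9.34% of all genes. Within 1 kb of a start the shares of 17492 genes were 12.3% for Halo-Sox2D, 1.31% for endogenous Sox2 and 0.537% for both. The 94 genes with both, not always at the same start of the gene, were 40.9% of the 230 endogenous Sox2 genes and 4.37% of the 2150 Halo-Sox2D genes.

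At the Sox2 gene itself, on chromosome 3, the libraries met downstream. There were 4 endogenous Sox2 and 3 Halo-Sox2D peaks in the window, none inside the gene. A site at chr3:34653977-34654052, 1.55 kb beyond the gene, held 2 of each with 1 Halo-Sox2M peak. Before the start, endogenous Sox2 had a peak at 0.472 kb and Halo-Sox2D at 1.67 kb.

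Pou5f1, the gene of Oct4, had 10 endogenous Sox2 and 7 Halo-Sox2D peaks and 3 shared sites. All 10 endogenous Sox2 peaks lay in these 3 sites. The nearest to the gene, chr17:35504760-35505171, held 5 endogenous Sox2 peaks, 1 Halo-Sox2D peak and 2 Halo-Sox2 peaks, centred 1.07 kb before the start. The others held 3 and 1 peaks (chr17:35504003-35504220) and 2 and 1 (chr17:35490494-35490612, 15.5 kb before the start). The 4 Halo-Sox2D peaks outside the sites lay from 20.1 kb before the start to 37.0 kb beyond the gene.

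Nanog, which encodes a homeobox factor of the pluripotent state, had 4 endogenous Sox2 and 5 Halo-Sox2D peaks and no shared site. Of the endogenous Sox2 peaks, 3 lay in the stretch printed above, at most 0.0725 kb outside the gene, and the other lay just inside it. The nearest Halo-Sox2D peak was 1.47 kb before the start, and the farthest were 37.9 kb before the gene and 29.0 kb beyond it.

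Genes of 18 lists were then read by role. Those named beside the fixed rule (under the account of processing) were chosen after their values were seen. In the list of the pluripotent state the coverage of the libraries was close. Of 40 genes for core and naive pluripotency, 35 had an endogenous Sox2 peak (87.5%, 73.9 to 94.5%) and 36 a Halo-Sox2D peak (90%, 76.9 to 96.0%), beside 27.3% and 57.7% of all genes. In 18 of the 40 (45.0%) a site held both. The order of the libraries depended on the window, with 32 and 31 genes at 20 kb and 31 and 30 by nearest gene. With bins of 5 or more peaks left out the counts were 19 and 27. At starts the order was reversed: of the 27 genes with a known start, 7 had endogenous Sox2 and 3 Halo-Sox2D. The shares were 25.9% and 11.1%, beside 1.31% and 12.3% of all genes. Halo-Sox2D thus stood near its share of all genes there. These 7 were Pou5f1, Nanog and Phc1 with 4 peaks each, and Sox2, Nr5a2, Trim28 and Spp1 with 1 each. The 3 with Halo-Sox2D were Phc1 and Trim28 with 2 peaks and Pou5f1 with 1. Members without Halo-Sox2D were Tet2 (4 endogenous Sox2 peaks) and Zfp42 (1), and those without endogenous Sox2 included Tbx3 (6 Halo-Sox2D peaks) and Tdgf1 (3). The gene of the nuclear receptor Esrrb had 13 endogenous Sox2 and 6 Halo-Sox2D peaks, and no site held both.

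Among these genes and those of the signalling and chromatin lists, several stood out for shared sites. Jarid2, a cofactor of PRC2, had 15 endogenous Sox2 and 7 Halo-Sox2D peaks and 3 shared sites, of which the one inside the gene held 5 and 2 peaks (chr13:44751836-44752024). Klf5, a Krüppel-like factor of naive cells, had 9 and 2 peaks and 2 shared sites. Its fuller site, chr14:99324571-99325052, lay 11.4 kb outside the gene. Prdm14 had 3 and 3, Dppa5a 6 and 4, and Manba, a lysosomal mannosidase gene, 4 and 11, each with 2 shared sites. Ino80, the ATPase of a chromatin remodeller, had 5 and 4, and a site inside it held 3 of each (chr2:119463955-119464231). Sox5 had 4 and 7, and the chaperone gene Hspa8 3 and 4, also with 2 shared sites each. By nearest gene Hspa8 had 1.

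FGF signalling through ERK drives these cells out of the naive state. Of 20 genes of this pathway, 14 had endogenous Sox2 (70.0%), 17 Halo-Sox2D (85.0%) and 9 a shared site (45.0%), beside 27.3%, 57.7% and 9.34% of all genes. Spry2, an inhibitor of the pathway, had the most endogenous Sox2 peaks of any protein-coding gene, 17, with 9 of Halo-Sox2D and 11 of Halo-Sox2. The fuller of its 2 shared sites, chr14:105920615-105921106, held 6 and 2 peaks 24.0 kb before the start. Spry4 had 5 and 10 peaks and 2 shared sites. Etv5, an ETS factor that responds to FGF, had 3 endogenous Sox2 peaks, all inside the gene, and 11 of Halo-Sox2D, with 1 of them 0.163 kb before the start. At starts Halo-Sox2D was present for 4 of 11 genes (Spry2, Spred1, Dusp6 and Etv5) and endogenous Sox2 for 1 (Spred1), beside 12.3% and 1.31% of all genes. Egr1 had no Halo-Sox2D peak and 2 endogenous Sox2 peaks, which lay 14.3 and 45.7 kb outside the gene, nearer to other genes. Sos1, which activates Ras, had 6 Halo-Sox2D peaks and none of endogenous Sox2.

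LIF keeps mouse embryonic stem cells naive through Stat3. All 12 genes of this pathway list had Halo-Sox2D peaks and 8 had endogenous Sox2 (66.7%), beside 57.7% and 27.3% of all genes. Lifr, the receptor gene, had 5 endogenous Sox2 and 4 Halo-Sox2D peaks, and Stat3 had 1 and 4. Ptpn11, a phosphatase gene, had 6 Halo-Sox2D peaks and no endogenous Sox2 peak. Of the 15 formative and primed genes, 10 had endogenous Sox2 (66.7%) and 11 Halo-Sox2D (73.3%).

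Within 50 kb, Halo-Sox2D stood above its share of all genes, 57.7%, in the BMP and Nodal list (66.7 to 95.3%) and narrowly in the Wnt list (58.4 to 91.9%). All list genes together stood at 77.7%. The intervals of endogenous Sox2 (19.7 to 57.0% and 21.9 to 61.3%) held its share of all genes, 27.3%. A shared site was present for 9.09% and 10% of the genes, near the 9.34% of all genes. Of 22 BMP and Nodal genes, 19 had Halo-Sox2D (86.4%) and 8 endogenous Sox2 (36.4%), and 12 had Halo-Sox2D alone, beside 35.5% of all genes. Id1, a BMP target, had 7 Halo-Sox2D peaks and no endogenous Sox2 peak, while Lefty2, a Nodal antagonist, had 7 endogenous Sox2 and 8 Halo-Sox2D peaks. Of 20 Wnt genes, 16 had Halo-Sox2D (80.0%) and 8 endogenous Sox2 (40.0%). Tcf7l1, a repressor of Wnt targets, had 6 and 12 peaks and 2 shared sites, and Tcf7l2 had 6 Halo-Sox2D peaks alone. At starts Halo-Sox2D was present for 1 of 14 BMP and Nodal genes and 0 of 13 Wnt genes, beside 12.3% of all genes. Endogenous Sox2 was present for 0 in both lists, beside 1.31%. Counts this small do not set the lists apart from all genes.

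Of 20 Polycomb genes, 12 had endogenous Sox2 (60.0%), 16 Halo-Sox2D (80.0%) and 6 a shared site (30%), beside 27.3%, 57.7% and 9.34% of all genes. At starts, endogenous Sox2 was present for Mtf2, Phc1 and Rbbp4, and Halo-Sox2D for the same 3 genes and Kdm2b, of 19 genes. Of 26 genes of NuRD, SWI/SNF and other remodellers, 15 (57.7%) had endogenous Sox2 and 22 (84.6%) Halo-Sox2D. At starts the remodeller list had 5 genes with Halo-Sox2D of 19 (Mbd3, Smarcb1, Smarcd1, Arid1a and Trrap) and 0 with endogenous Sox2. Over all genes 12.3% and 1.31% had such peaks, and a count of 0 in 19 does not set the list apart from that. Of 12 genes for DNA methylation and its removal, 5 (41.7%) had endogenous Sox2 and 9 (75%) Halo-Sox2D. Tet2, which oxidises methylcytosine, and the deacetylase gene Hdac2 had endogenous Sox2 alone, with 4 and 2 peaks.

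Among genes used by every cell, Halo-Sox2D was at more starts than endogenous Sox2, as it was over all genes. Of 21 ribosomal protein genes with a known start, 9 had Halo-Sox2D within 1 kb (42.9%) and 1, Rpl19, had endogenous Sox2, beside 12.3% and 1.31% of all genes. The 9 were Rpl5, Rpl10, Rpl18, Rpl22, Rpl27, Rps3, Rps9, Rps18 and Rps19. For transcription, RNA processing and translation the counts were 6 and 0 of 28, with Hnrnpa1, a splicing regulator, at 3 Halo-Sox2D peaks. A count of 0 in 28 does not set that list apart from all genes. For glycolysis and other housekeeping genes the counts were 5 and 1 of 15. Within 50 kb, 25 of 30 ribosomal protein genes had Halo-Sox2D (83.3%) and 12 endogenous Sox2 (40.0%, 24.6 to 57.7%). Over all genes the shares within 50 kb were 57.7% and 27.3%, and the endogenous Sox2 interval held the latter. Tuba1a, a tubulin gene, had 8 Halo-Sox2D peaks and Hnrnpl and Rps18 had 6 each, with 0 of endogenous Sox2. By nearest gene these Halo-Sox2D counts were 5, 3 and 0, although 1 peak lay 0.1725 kb before the Rps18 start. Pkm, the pyruvate kinase gene, was the reverse with 3 endogenous Sox2 peaks, 1 by nearest gene, and 0 of Halo-Sox2D.

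Lineage lists are read beside all genes, where 27.3% had endogenous Sox2 and 57.7% Halo-Sox2D. Endogenous Sox2 was found for 14 of 30 neural genes (46.7%), 8 of 14 trophoblast genes (57.1%), 3 of 20 mesendoderm genes (15%) and 5 of 20 fibroblast genes (25%). For Halo-Sox2D the counts were 21 (70.0%), 11 (78.6%), 14 (70.0%) and 10 (50%). Of 20 genes that mark other tissues, 13 had Halo-Sox2D (65.0%, 43.3 to 81.9%), near the share of all genes, and 0 had endogenous Sox2, with an upper Wilson bound of 16.1%. Krt14, a keratin of the epidermis, had 6 Halo-Sox2D peaks in its window, 1 by nearest gene. With endogenous Sox2 alone were Sox9 (4 peaks), Sox11 (3), the trophoblast regulator Gata3 (2), the neural factor Lhx5 (2) and Acta2 (1), and Taf1, a subunit of TFIID, with 2. The peaks counted for Acta2 and Taf1 lay nearer to other genes. Over the 26 Sox and POU genes 13 had endogenous Sox2 and 17 Halo-Sox2D. Over all 376 list genes the counts were 178 (47.3%) and 292 (77.7%).

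**Figure D5:**
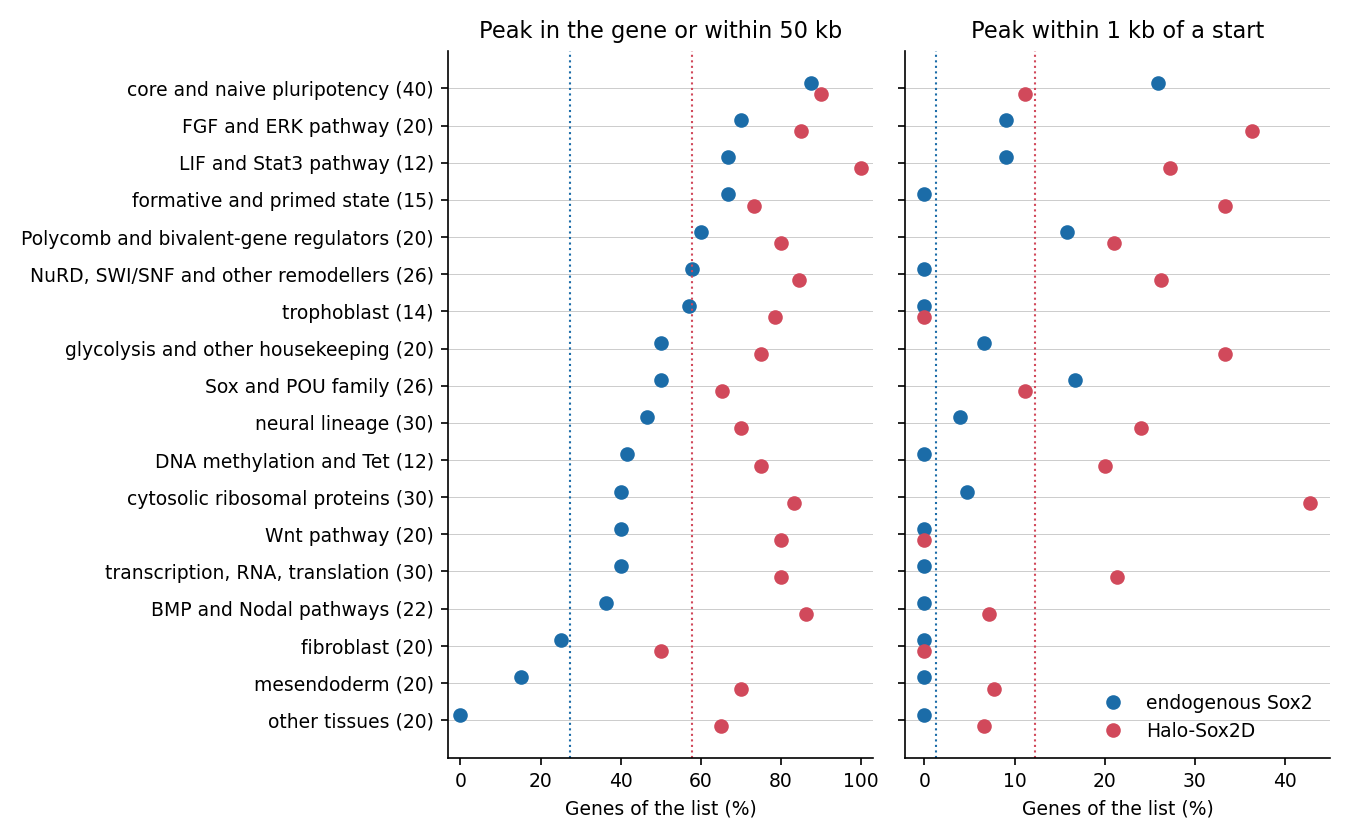
Share of the genes of each list (%) with a peak in the gene or within 50 kb (left) and within 1 kb of a transcription start (right, over the 9 to 28 genes of each list with a known start); dotted lines give all protein-coding genes and brackets the number of genes in the list. On the left the libraries lie close together for core and naive pluripotency (87.5 and 90%). On the right endogenous Sox2 is higher than Halo-Sox2D for that list (7 and 3 of 27 genes). It is also higher for the Sox and POU genes (3 and 2 of 18), and Sox2 and Pou5f1 are in both lists.

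When each peak was given to its nearest gene within 50 kb, Dnah8, an axonemal dynein gene, and Myo10, a myosin gene, had 4 shared sites each. The Dnah8 site centred 1.01 kb after its start, chr17:30627639-30628258, held 5 endogenous Sox2 peaks, 1 Halo-Sox2D peak and 3 Halo-Sox2 peaks. Ebf1, Etl4, Jarid2, Macf1, Msi2, Pou5f1, Ppp2r5c and Rnf220 had 3 shared sites each. Several of these genes are long, and the part of gene length was not tested.

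Genes with endogenous Sox2 nearest and no Halo-Sox2D were led by Samd7 with 7 peaks, followed by Adra1a with 6, and Cct8l1 and Lats2, a kinase of the Hippo pathway, with 5. 4931422A03Rik, Acoxl, Akap8, F2rl1 and Gm52787 had 4 each. The reverse list was led by Pmepa1, an inhibitor of TGF-beta signalling, and the cytoskeletal gene Septin9 with 9 Halo-Sox2D peaks each. Mical3, Sipa1l3, Ywhag and Zfp710 had 8, and Iffo2, Rreb1, Slc44a3 and Sorl1 had 7. Absence here goes by nearest gene. Within 50 kb Sipa1l3 had 2 endogenous Sox2 peaks and Zfp710 1, each with 1 shared site. Likewise Lats2 had 2 Halo-Sox2D peaks within 50 kb, and Samd7, Acoxl, Akap8 and Gm52787 had 1 each.

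In genes with several starts, each library was counted at the start where it had most peaks. The 2 counts of a gene can therefore come from different starts. Among the 94 genes with both libraries within 1 kb of a start, Mtf2 had 3 endogenous Sox2 and 4 Halo-Sox2D peaks, at different starts. Pipox had 5 and 2. Phc1, a subunit of Polycomb complex PRC1, had 4 and 2. Cnpy1 had 5 and 1, and Dhx32 and Pou5f1 had 4 and 1. Zdbf2 and Zfp146 had 1 and 4, the opposite balance. Ankrd6 and C2cd5 had 2 and 2.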

How the data were processed

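ChIP-exo was done in D3 mouse embryonic stem cells with 1 library per group, so no test between libraries was made. Per the submitters' processing notes, reads were processed with Bowtie2 on mm10. The peak caller was not given in the sources used here, nor were its threshold and the filters on reads. Deposited lists hold coordinates alone (chromosome, start, end), with no score or read number, and starts were read as counted from 0. Overlaps, joined sites (centres within 500 bp), distances and motif counts came from code in Python 3.11.15 (pandas 2.3.3, numpy 2.4.6), and Wilson intervals from scipy 1.17.1. Code was tested on simulated data, and overlaps matched bedtools 2.31.1 (430 and 418). Genes and promoter windows came from RefSeq tables of GRCm38.p6, in which all 376 list symbols matched.

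The members and gene lists were chosen with earlier results of these data known. Named genes were Sox2, Pou5f1 and Nanog; list genes with most shared sites (up to 12) or with peaks of a single library (up to 10 each way); the 10 leading genes of each kind by nearest gene; and the 10 with most peaks of both libraries at a start. For the last kind, each library was counted at the start of the gene where it had most peaks. Ties went by alphabet, and a few genes that the rule names are left out of the text. Other genes are values of the fixed lists, chosen for the text after their values were seen. The closing section gives the alternatives tried. A stricter peak threshold was not run, since the lists hold no scores.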

Additional observations from a re-analysis of the deposited data

Results flagged for a closer look

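The peaks left out of the comparison are given here because no result above uses them. Unplaced and random sequence held 338 endogenous Sox2 and 220 Halo-Sox2D peaks. The 11 dense bins held 448 and 282. Mitochondrial DNA held 90 Halo-Sox2D peaks and 3 of endogenous Sox2. A library that would set their level, of input DNA or of resin alone, was not used here. In a single bin, on chromosome 9 from 3000000, there were 249 endogenous Sox2 and 162 Halo-Sox2D peaks, and the fullest bin kept held 14.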

How the results depend on the processing

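Values are for endogenous Sox2 first and Halo-Sox2D second. Sharing within 500 bp (31.9 and 12.4%) became 36.1 and 13.9% without the dense-bin filter, 24.5 and 9.66% with bins of 5 or more peaks left out, and 27.4 and 10.6% with peaks merged within 100 bp. It was 6.76 and 3.16% at an overlap of 1 bp, 3.05 and 1.47% at a reciprocal overlap of 50%, 17.5 and 7.35% within 50 bp, and 34.7 and 13.5% within 1000 bp. Peaks in sites of 2 or more (47.7 and 19%) became 50.8 and 20.5% without the filter, 39.8 and 15% with bins of 5 or more left out, and 46.1 and 15.5%, 49.2 and 21.9%, and 50.6 and 25.4% at joining distances of 200, 1000 and 2000 bp. Shares near a gene end (6.77 and 21.7%) became 4.16 and 16.7% within 500 bp, 11.8 and 27.6% within 2 kb, 22.5 and 38.3% within 5 kb, and 12.5 and 28.3% for all annotated genes. The difference between Halo-Sox2D peaks of its own and of shared sites (13.2 points) was 10.8 points at 500 bp and 10.5 points for all annotated genes, where that of endogenous Sox2 (−0.556 points) was −2.45 (−4.28 to −0.692). Genes with both libraries (4857) numbered 2658 with 20 kb windows, 7849 with 100 kb windows and 1915 by nearest gene, and those with Halo-Sox2D alone (7770) 4777 by nearest gene. Chosen after seeing the data were 1 value per joined site, with 7.45% of endogenous Sox2 sites near a gene end and a difference of −2.04 points (−3.98 to −0.278), and Halo-Sox2D peaks without a Halo-Sox2 peak within 500 bp, of which 19.1% lay near a start. With bins of 5 or more peaks left out, 19 of 40 pluripotency genes had endogenous Sox2, and with 100 kb windows 5 of the 20 genes of other tissues did. The cause of these changes was not tested. The sign of the endogenous Sox2 difference, whose interval held 0, changed to 0.695 (−0.524 to 1.86) without the dense-bin filter, and with peaks merged within 100 bp it was −1.71 (−3.55 to −0.0369). Pluripotency genes numbered 32 and 31 with 20 kb windows and 31 and 30 by nearest gene, the reverse of the reported order of 35 and 36. In all, 76 values stayed within their counting intervals or within 1.5 times the reported count. The 0.695 and −1.71 just given are among them, since both lie inside the wide interval of −0.556. So did 187 counts over single lists, while 29 did not. No paired analysis was possible because each group is 1 library. The lists hold no read numbers, so depth and threshold limit every count in a way that could not be measured.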
